A study of Mus musculus with 10 samples.

Results

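The 36 genes described here encode aminoacyl-tRNA synthetases, the enzymes that join each amino acid to its tRNA. They are the entries of the deposited expression table whose gene name equals one of 36 fixed names, out of 23479 entries in all. Of these, 19 encode cytosolic enzymes, 2 (Gars and Kars) encode enzymes used in both compartments, and 15 encode mitochondrial enzymes. Below, "cytosolic class" means the first 21 genes and "mitochondrial class" the 15. In all, 16 of the names end in 2, because Tarsl2, a cytosolic threonyl-tRNA synthetase, also does. Lars2, the mitochondrial leucyl-tRNA synthetase, was left out because its reads may be ribosomal RNA. Its share of all reads was 0.377% and 0.450% in the shSlpi-2 libraries and 0.0307% to 0.0832% in the others, while that of the ribosomal RNA entry Rn45s was 6.88% and 6.91% in shSlpi-2 and 0.881% to 1.96% elsewhere.

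RNA was sequenced from clone 4T1-T, grown out of a single cell of the mouse mammary carcinoma line 4T1, so every group stands for 1 clone. All cells had been infected with a short hairpin RNA. The control, shRenilla, carries a hairpin against Renilla luciferase, which mouse cells lack, shSerpine2-1 and shSerpine2-2 target Serpine2, and shSlpi-1 and shSlpi-2 target Slpi. Both targets encode secreted inhibitors of serine proteases, and the comparisons ask which transcripts differ when either of them is reduced. Every group was sequenced as 2 libraries, A and B, with depths of 15877431 to 24026620 reads. The labels do not say whether A and B came from different cultures. The p-values therefore rest on the spread within these pairs of libraries, and that spread may be technical. In bulk RNA, fewer cells of a kind and less RNA per cell cannot be told apart.

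Charging of tRNA supplies both the cytosolic ribosome and the separate ribosome inside mitochondria, and most amino acids have a different enzyme for each. In the cytosol, a number of the enzymes are held together with scaffold proteins in the multisynthetase complex. When amino acids run short or the endoplasmic reticulum is stressed, the transcription factor Atf4 raises many cytosolic synthetase genes together with genes of amino acid uptake and synthesis, binding a DNA element that C/EBP and ATF proteins share.

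Values are normalized counts, that is, reads scaled to be comparable between libraries. Differences are log2 differences from limma on log2(normalized count + 1), and a gene is said to have risen, fallen or changed where its p, adjusted over all 12299 genes tested, was under 0.05. All 36 members had a mean of at least 10 and were tested. Serpine2 stood at 3256 and 3145 in shRenilla, at 128 and 139 with shSerpine2-1 and at 489 and 514 with shSerpine2-2. Slpi stood at 1189 and 1313 in shRenilla, at 145 and 147 with shSlpi-1 and at 60.9 and 75.8 with shSlpi-2. Each target was lowest under its own hairpins. Serpine2 was also lower with shSlpi-1 (1342 and 1331) and shSlpi-2 (1553 and 1731), and Slpi with shSerpine2-1 (326 and 414). The 6 epithelial markers were all well expressed, with a summed count of 21599 to 22199 in shRenilla and 31410 to 31422 in shSlpi-2. Among markers of leukocytes, endothelial cells and fibroblasts, 15 of 17 had a mean under 10, and none was at 0 in every library. Their summed counts were 112 to 161 (leukocyte), 6.15 to 72.9 (endothelial) and, for fibroblasts, 888 to 905 in shRenilla and 463 to 775 elsewhere, and the part of these in the synthetase values was not tested.

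Per kilobase of the main annotated transcript, cytosolic synthetase transcripts were the more abundant in control cells. The cytosolic class ran from 94.98 (Tarsl2) to 2146 (Eprs, which charges both glutamate and proline tRNA) normalized counts per kilobase in shRenilla, with a median of 613. The mitochondrial class ran from 18.6 (Mars2, for methionine) to 728 (Yars2, for tyrosine), with a median of 96.3. The ranges thus overlapped, with Yars2 and Iars2 (424, for isoleucine) among the cytosolic enzymes. Several cytosolic members, among them Sars (300) and Aars (356), lay below Iars2. Nars2 (190) lay just above Cars (186, for cysteine), and Rars2, Tars2, Wars2, Hars2 and Cars2 lay above Tarsl2. The main transcript of Mars2 is annotated at 11.3 kb, the longest of the 15, so its place at the bottom depends on that length. Eprs had normalized counts of 10503 and 10553 in shRenilla, 12140 and 12285 with shSerpine2-1, 12425 and 12321 with shSerpine2-2, 11056 and 11717 with shSlpi-1 and 13148 and 11489 with shSlpi-2. Every hairpin library was above shRenilla. Mars2 had 214 and 206 in shRenilla, 229 and 235 with shSerpine2-1, 236 and 263 with shSerpine2-2, 206 and 222 with shSlpi-1 and 271 and 221 with shSlpi-2, and Tarsl2 had 306 and 301 in shRenilla, 337 and 342 with shSerpine2-1, 322 and 355 with shSerpine2-2, 339 and 357 with shSlpi-1 and 357 and 321 with shSlpi-2. For Mars2 the shSlpi-1 libraries overlapped shRenilla, and for Tarsl2 all hairpin libraries lay above it, though neither passed the test with any hairpin.

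**Figure D1:**
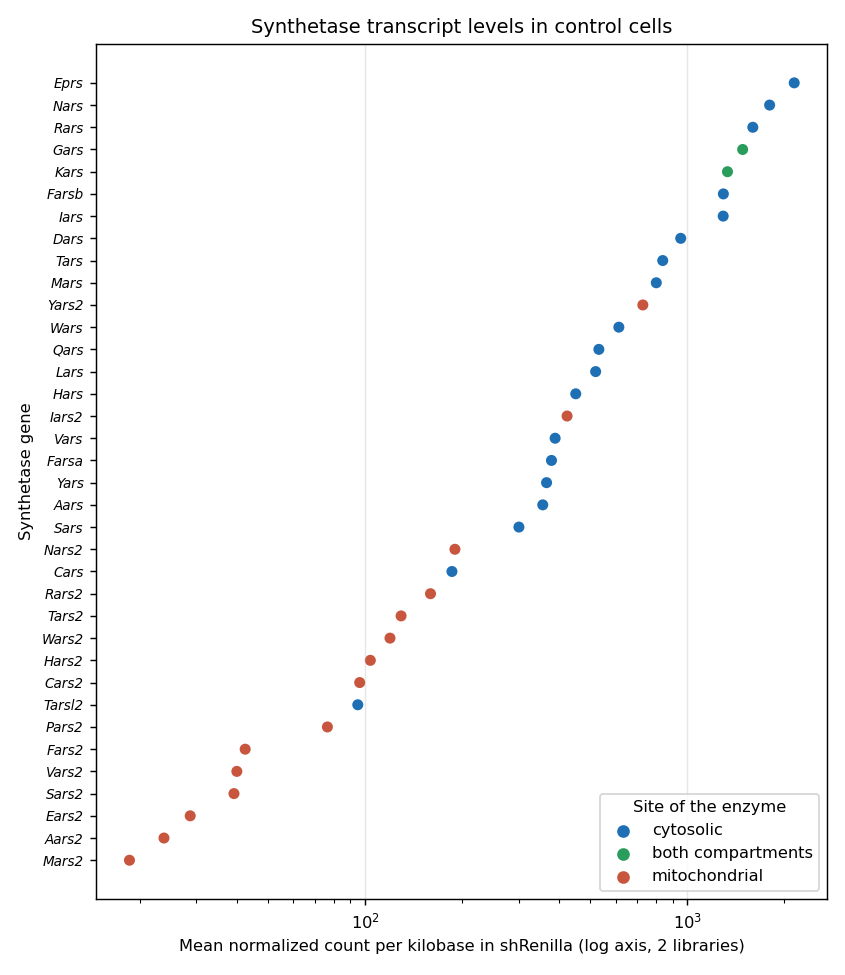
Mean normalized count per kilobase in the 2 shRenilla libraries (log axis) for each of the 36 synthetase genes, coloured by where the enzyme works. The cytosolic class spans 94.98 to 2146 and the mitochondrial class 18.6 to 728.

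Promoter sequence was examined for the DNA element that Atf4 binds, because the cytosolic members moved together in the comparisons that follow. RefSeq promoter windows (250 bases before to 50 after each start, GRCm38.p6) were found for 27 of the 36 members, 14 cytosolic and 13 mitochondrial. They were searched on both strands for TGATGNAA, read as TTNCATCA on the opposite strand. Windows of 5 of the 14 cytosolic genes held it, against 0 of the 13 mitochondrial genes, and 3.97% of all 32851 windows and 4.51% of the 27025 genes they belong to held it. Not matched were Cars, Hars, Hars2, Lars, Nars, Pars2, Rars, Vars and Wars. The 5 genes encode the alanine, glycine, isoleucine, threonine and tyrosine enzymes. For each, the match nearest to the start is shown in 30 bases of the gene's own strand, with the 8 matching letters in capitals:
Aars (chr8:111033840-111033869, plus strand): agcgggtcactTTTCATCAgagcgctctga
Gars (chr6:55037960-55037989, plus strand): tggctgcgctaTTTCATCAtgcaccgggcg
Iars (chr13:49682126-49682155, plus strand): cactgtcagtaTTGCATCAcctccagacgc
Tars (chr15:11399655-11399684, minus strand): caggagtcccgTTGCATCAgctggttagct
Yars (chr4:129189895-129189924, plus strand): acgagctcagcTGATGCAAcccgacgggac

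The match shown begins 30 bases before the RefSeq start in Gars and 15 before it in Tars. It begins at base 10 after the start in Aars, 8 in Iars and 4 in Yars. In GENCODE M21 the matching letters of the Aars and Iars sites fall in untranslated parts of exons of their own genes. Those of Yars fall in an exon of Yars annotated there as both coding and untranslated. Those of Gars and Tars fall outside annotated exons. The letters are TTGCATCA in Iars and Tars, TTTCATCA in Aars and Gars, and TGATGCAA on the gene's strand in Yars. A match describes letters only and is not a shown binding site. Among tested genes with a promoter window, 12.3% of the 243 with the motif rose with the Serpine2 hairpins, against 10.9% of the 8819 without it, and with the Slpi hairpins 14.4% rose against 16.6%.

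With the Serpine2 hairpins pooled (4 libraries against 2), 17 of the 21 cytosolic genes rose and 0 fell, and none of the 15 mitochondrial genes passed the test in either direction. Of all genes tested, 10.7% rose and 10.8% fell. The median log2 difference was 0.22 in the cytosolic class, -0.01 in the mitochondrial class and 0.00 over all genes. The mitochondrial genes had lower counts and larger errors, and the median SE was 0.0522 in the cytosolic and 0.106 in the mitochondrial class. Among all genes with means in the mitochondrial range (53.1 to 2113), 10.1% rose and 10.7% fell, and in the cytosolic range (334 to 11764) 16.0% rose and 13.6% fell.

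Aars, which charges alanine tRNA (chr8:111033144-111057664, plus strand of GRCm38, the build of all positions here), had normalized counts of 2143 and 1951 in shRenilla, 2767 and 2877 with shSerpine2-1, 3227 and 3086 with shSerpine2-2, 2562 and 2544 with shSlpi-1 and 3068 and 2772 with shSlpi-2. Every hairpin library was above both shRenilla libraries, and shSerpine2-2 was highest. With the Serpine2 hairpins Aars rose 1.46-fold, a log2 difference of 0.54 ± 0.0522 (SE, adjusted p = 5.4e-06) in limma. Nars, the asparagine enzyme, had 5062 and 4822 in shRenilla, 6070 and 6332 with shSerpine2-1, 7311 and 7403 with shSerpine2-2, 5602 and 5841 with shSlpi-1 and 6886 and 6267 with shSlpi-2. Its 8 hairpin libraries all exceeded shRenilla, with shSerpine2-2 again highest, and it rose by 0.45 ± 0.0457 (SE, adjusted p = 8.7e-06) in limma. Yars, the tyrosine enzyme (chr4:129189760-129219607, plus strand), had 1115 and 1014 in shRenilla, 1403 and 1356 with shSerpine2-1, 1530 and 1514 with shSerpine2-2, 1336 and 1334 with shSlpi-1 and 1342 and 1247 with shSlpi-2. None of its hairpin libraries overlapped shRenilla, and its limma log2 difference was 0.45 ± 0.0541 (SE, adjusted p = 5.5e-05).

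Lars, for leucine, had normalized counts of 2137 and 1999 in shRenilla, 2465 and 2777 with shSerpine2-1, 2990 and 2908 with shSerpine2-2, 2385 and 2552 with shSlpi-1 and 2855 and 2499 with shSlpi-2. All hairpin libraries lay above shRenilla, and Lars rose by 0.43 ± 0.0605 (SE, adjusted p = 1.6e-04) with the Serpine2 hairpins in limma. Vars, for valine (chr17:35000987-35016322, plus strand), had 1644 and 1575 in shRenilla, 2073 and 2135 with shSerpine2-1, 2213 and 2111 with shSerpine2-2, 1972 and 1986 with shSlpi-1 and 2168 and 2341 with shSlpi-2. The groups did not overlap shRenilla, and Vars rose by 0.41 ± 0.0483 (SE, adjusted p = 5.0e-05) in limma. Tars, for threonine (chr15:11382301-11399665, minus strand), had 3429 and 3290 in shRenilla, 4067 and 4240 with shSerpine2-1, 4457 and 4568 with shSerpine2-2, 3655 and 3745 with shSlpi-1 and 3911 and 3494 with shSlpi-2. The 4 Serpine2-hairpin libraries were the 4 highest, and Tars rose by 0.37 ± 0.0481 (SE, adjusted p = 1.0e-04) in limma.

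Cars had normalized counts of 614 and 585 in shRenilla, 755 and 701 with shSerpine2-1, 873 and 889.8 with shSerpine2-2, 734 and 749 with shSlpi-1 and 829 and 697 with shSlpi-2. Sars, for serine, had 1109 and 1035 in shRenilla, 1301 and 1286 with shSerpine2-1, 1572 and 1509 with shSerpine2-2, 1205 and 1237 with shSlpi-1 and 1549 and 1338 with shSlpi-2. Both had their highest group mean with shSerpine2-2, without overlap between any hairpin library and shRenilla, and rose by 0.42 and 0.40 with the Serpine2 hairpins. Smaller rises were seen for Gars (glycine, 0.29), Hars (histidine, 0.24), Eprs (0.22), Mars (methionine, 0.22), Farsa (the alpha subunit of the phenylalanine enzyme, 0.21), Rars (arginine, 0.21), Wars (tryptophan, 0.20), Kars (lysine, 0.20) and Iars (isoleucine, 0.18). The 4 cytosolic genes that did not pass were Dars (aspartate, 0.15), Qars (glutamine, 0.10), Tarsl2 (0.16) and Farsb (the beta subunit of the phenylalanine enzyme, 0.04). The phenylalanine enzyme needs both subunits, and their transcripts gave 0.21 ± 0.0601 (SE, adjusted p = 0.021) for Farsa and 0.04 ± 0.0464 (SE, adjusted p = 0.55) for Farsb in limma. In the mitochondrial class the values ran from -0.16 (Nars2) to 0.27 (Vars2).

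Each hairpin was also compared with shRenilla by itself. With shSerpine2-1, 14 cytosolic genes rose, against 5.09% of all genes, and no member fell, against 5.38%. With shSerpine2-2, 17 cytosolic genes rose, against 14.2% of all genes, and 1 mitochondrial gene, Nars2, fell (-0.25 ± 0.0803 SE, adjusted p = 0.031 in limma), against 13.4%. The cytosolic median was 0.21 with the first hairpin and 0.27 with the second, and the mitochondrial median was -0.03 and 0.00. The 3 cytosolic genes that rose with shSerpine2-2 and did not pass with shSerpine2-1 were Farsa (0.15 and 0.27 with the first and the second hairpin), Rars (0.13 and 0.28) and Wars (0.14 and 0.27), and the difference between the hairpins passed for none of them in limma (adjusted p = 0.26, 0.11 and 0.14).

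These counts changed as libraries were left out. The pooled Serpine2 count fell from 17 to 11 members without either shRenilla library, and that of shSerpine2-1 fell from 14 to 8 and 4 without shRenilla A or B, to 6 and 4 without its own library A or B, and to 7 without the filter on low values. With the library mean of each group taken as 1 value, so that the hairpin line is the unit, limma called 0 members and 0 genes in all with the Serpine2 hairpins, and 9 members had an unadjusted p under 0.05.

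**Figure D2:**
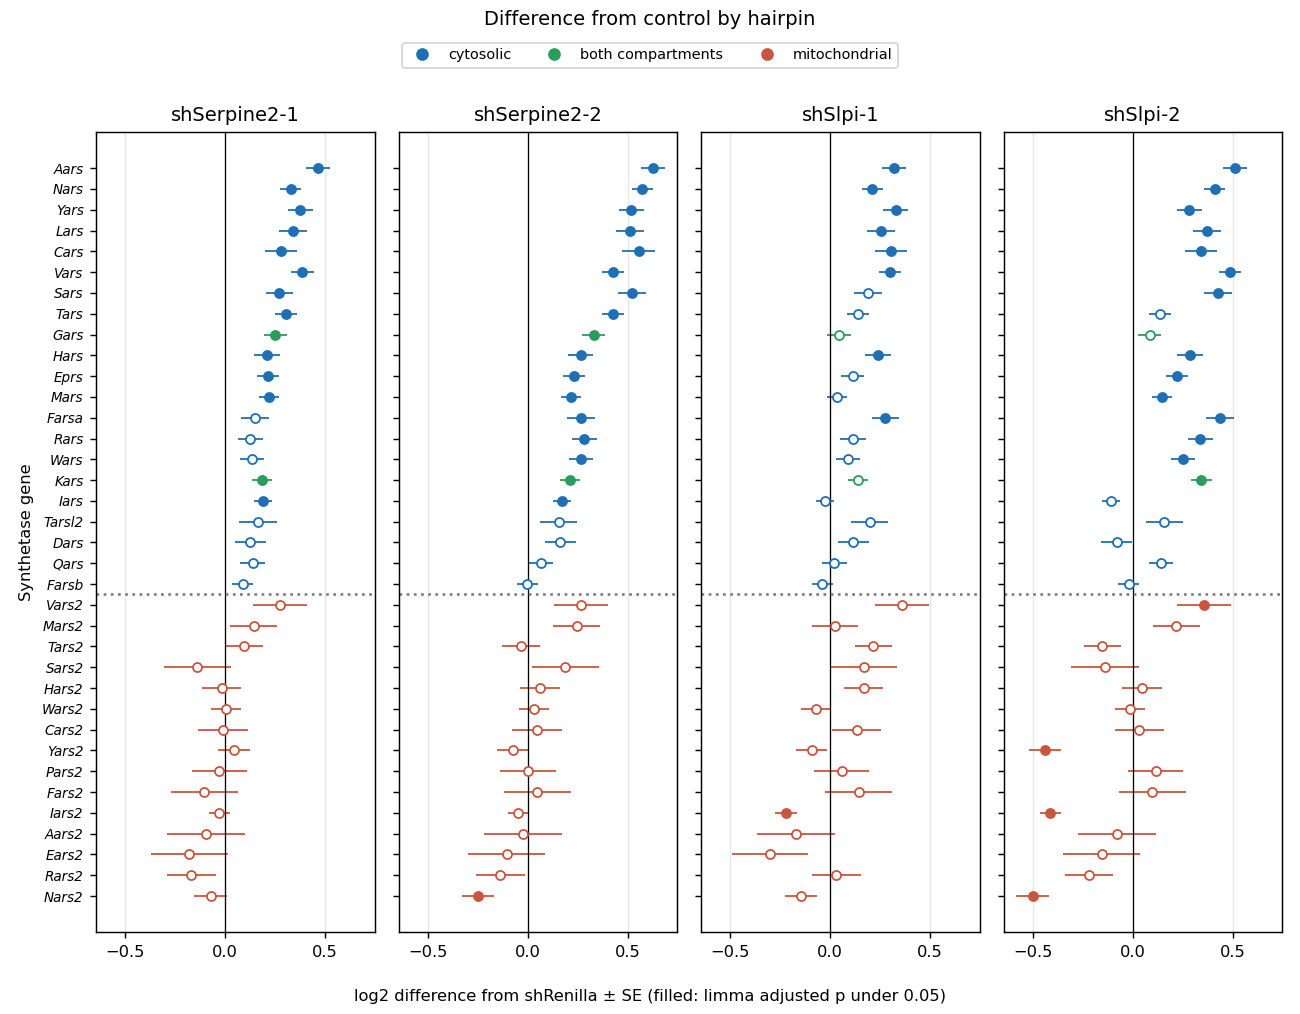
log2 difference from shRenilla (± SE) of each synthetase gene with each hairpin, 2 libraries against 2, with the cytosolic class above the dotted line and the mitochondrial class below it. Filled points passed limma's adjusted p of 0.05: 14, 17, 8 and 14 cytosolic genes rose in the 4 panels from left to right, and 0, 1, 1 and 4 mitochondrial points are filled.

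With both Slpi hairpins together, against the same 2 shRenilla libraries, 14 cytosolic genes and 1 mitochondrial gene rose and 3 mitochondrial genes fell. Of all genes tested, 16.5% rose and 18.3% fell. The cytosolic median was 0.23, the mitochondrial median 0.01 and that of all genes -0.01. Because the controls are shared, this comparison is not independent of the one with the Serpine2 hairpins. Among all genes with means in the mitochondrial range 17.5% rose and 17.7% fell, and in the cytosolic range 20.5% rose and 25% fell.

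The largest cytosolic differences with the Slpi hairpins were those of Aars (0.42 ± 0.0522 SE, adjusted p = 1.6e-05 in limma) and Vars (0.39 ± 0.0483 SE, adjusted p = 1.3e-05), whose single libraries are given above. Farsa had normalized counts of 675 and 708 in shRenilla, 727 and 808 with shSerpine2-1, 825 and 841 with shSerpine2-2, 857 and 819.9 with shSlpi-1 and 943 and 931 with shSlpi-2. All 4 Slpi-hairpin libraries were above both shRenilla libraries, with shSlpi-2 highest, and Farsa rose by 0.36 ± 0.0601 (SE, adjusted p = 2.4e-04) in limma. Kars, the lysine enzyme of both compartments (chr8:111993443-112011323, minus strand), had 2644 and 2706 in shRenilla, 2941 and 3152 with shSerpine2-1, 3095 and 3112 with shSerpine2-2, 2898 and 2995 with shSlpi-1 and 3394 and 3399 with shSlpi-2. Its shSlpi-2 libraries were the highest of all 10, and it rose by 0.24 ± 0.0435 (SE, adjusted p = 4.3e-04) in limma. The others that rose were Cars (0.32), Lars (0.31), Nars (0.31), Sars (0.31), Yars (0.31), Hars (0.26), Rars (0.23), Eprs (0.17), Wars (0.17) and Tars (0.14). Of the Slpi hairpins taken singly, Eprs, Kars, Rars, Sars and Wars rose with shSlpi-2 only, and Tars with neither. The pooled Tars call was lost in limma without the filter on low values (adjusted p = 0.0716) and with scaling by library total (0.0916). The pooled Tars difference was 0.17 without shRenilla A and 0.11 without shRenilla B. Fitted on the libraries compared alone, Eprs (limma adjusted p = 0.0509), Wars (0.0517) and Tars (0.0876) did not pass. Those that did not pass were Tarsl2 (0.18), Mars (0.09), Qars (0.08), Gars (0.06), Dars (0.02), Farsb (-0.03) and Iars (-0.07).

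The 3 of 15 mitochondrial genes that fell with the Slpi hairpins are a share near the 18.3% of all genes that did. Iars2, the mitochondrial isoleucine enzyme (chr1:185284726-185329396, minus strand), had normalized counts of 2372 and 2263 in shRenilla, 2280 and 2263 with shSerpine2-1, 2221 and 2267 with shSerpine2-2, 2049 and 1931 with shSlpi-1 and 1774 and 1712 with shSlpi-2. The 4 Slpi-hairpin libraries were the 4 lowest, and Iars2 fell to 0.804 of the control level, a log2 difference of -0.32 ± 0.0463 (SE, adjusted p = 7.1e-05) in limma. Nars2, for asparagine (chr7:96951505-97064758, plus strand), had 730.1 and 706 in shRenilla, 661 and 706 with shSerpine2-1, 634 and 578 with shSerpine2-2, 628 and 670.1 with shSlpi-1 and 479 and 537 with shSlpi-2. Its Slpi-hairpin libraries were all below shRenilla, with shSlpi-2 lowest of all, and it fell by 0.32 on the log2 scale (limma, adjusted p = 0.0018).

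Yars2 (chr16:16302965-16309640, plus strand) had normalized counts of 1174 and 1117 in shRenilla, 1201 and 1163 with shSerpine2-1, 1096 and 1083 with shSerpine2-2, 1100 and 1049 with shSlpi-1 and 765 and 934 with shSlpi-2. Its shSlpi-2 libraries were well below all others and those of shSlpi-1 only just below shRenilla, and the pooled log2 difference was -0.27 ± 0.0679 (SE, adjusted p = 0.0062) in limma, with an adjusted p of 0.0916 without shRenilla A. Vars2, for valine, had 180.2 and 174 in shRenilla, 233 and 197 with shSerpine2-1, 208 and 218 with shSerpine2-2, 219.8 and 236 with shSlpi-1 and 196 and 263 with shSlpi-2. It lay above shRenilla in all 8 hairpin libraries, and it passed with the Slpi hairpins (0.36 ± 0.117 SE, adjusted p = 0.024 in limma) and not with the Serpine2 hairpins (0.27, adjusted p = 0.11). The pooled Slpi call for Vars2 was lost in limma without shRenilla A (adjusted p = 0.0982) or B (0.156), without shSlpi-1 B (0.0647) or shSlpi-2 B (0.0578), and without the filter on low values (0.0627). Without shSlpi-2 B its shSlpi-2 value was 0.15 in place of 0.36 (limma, adjusted p = 0.428). For isoleucine, asparagine, tyrosine and valine the mitochondrial gene passed with the Slpi hairpins, and only for these is the cytosolic partner set beside it here. These pairs were thus picked by outcome, and the members of other pairs are given singly elsewhere. With the Slpi hairpins the log2 differences were -0.07 for Iars and -0.32 for Iars2, 0.31 for Nars and -0.32 for Nars2, and 0.31 for Yars and -0.27 for Yars2. The valine pair, Vars at 0.39 and Vars2 at 0.36, both rose.

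**Figure D3:**
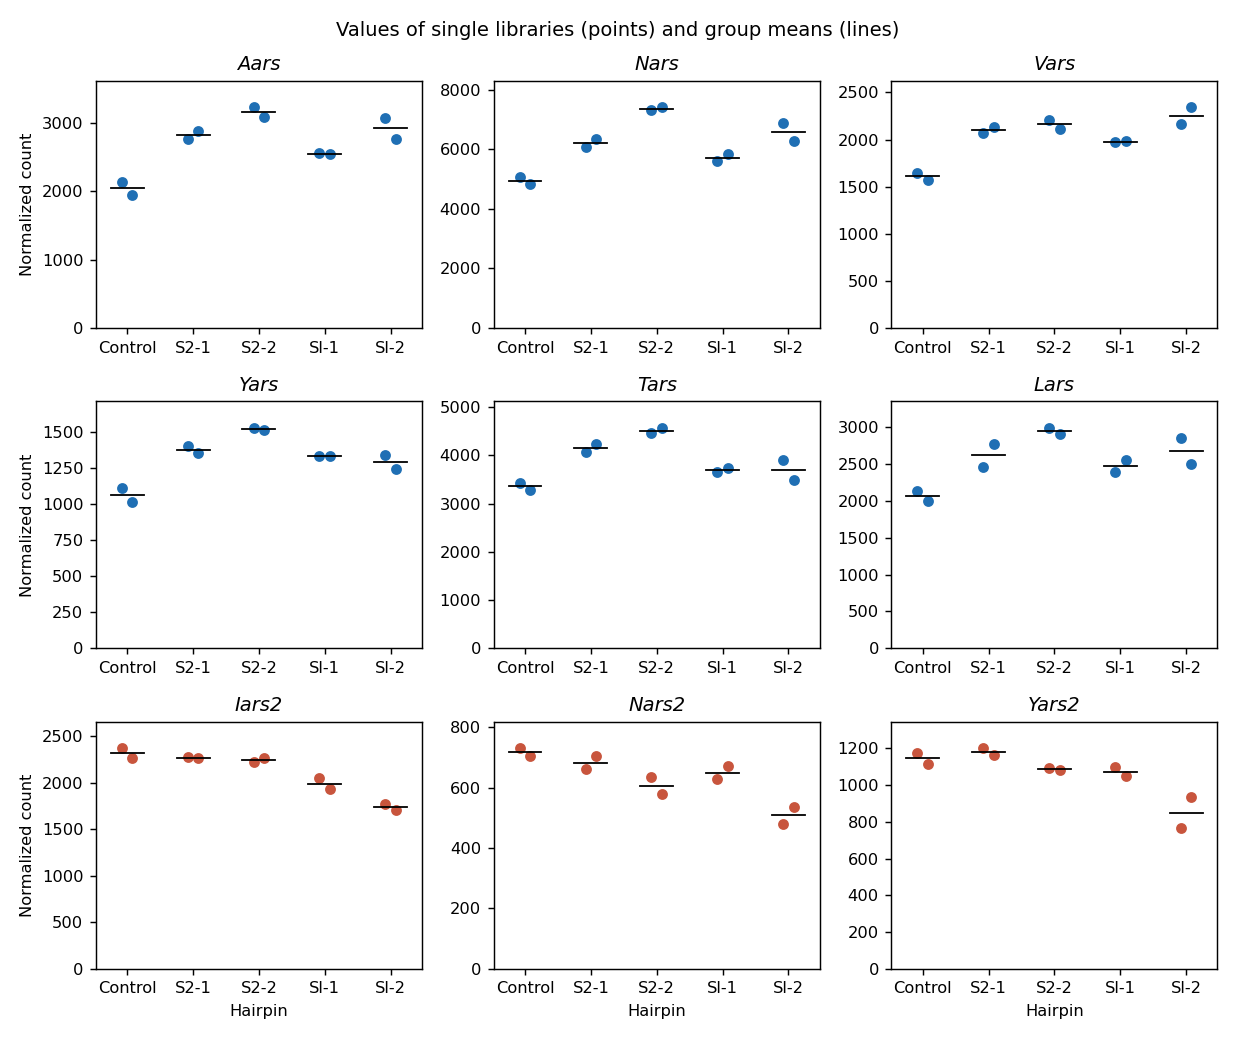
Normalized counts (each y axis starts at 0) of 6 cytosolic genes (blue) and 3 mitochondrial genes (red) in every library, with lines at the group means of 2 libraries. Control is shRenilla, S2-1 and S2-2 are shSerpine2-1 and shSerpine2-2, and Sl-1 and Sl-2 are shSlpi-1 and shSlpi-2. Aars stands at 1951 and 2143 in shRenilla and at 2544 to 3227 elsewhere, and Iars2 is lowest with shSlpi-2 (1712 and 1774).

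By single hairpin, shSlpi-1 gave 8 cytosolic genes that rose, against 7.65% of all genes, and 1 mitochondrial gene that fell, Iars2 (-0.22 ± 0.0535 SE, adjusted p = 0.0094 in limma), against 9.88%. With shSlpi-2, 14 cytosolic genes and Vars2 rose, against 20.4% of all genes, and Iars2 (-0.41), Nars2 (-0.50) and Yars2 (-0.44) fell, against 21.9%. The falls of Nars2 and Yars2 were thus called with 1 of the 2 Slpi hairpins. The cytosolic median was 0.14 and 0.28, and the mitochondrial median 0.03 and -0.08, with shSlpi-1 and shSlpi-2.

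The shSlpi-2 libraries are those with the high Rn45s share, and the part of that in these values was not tested. Without both of them, the count with shSlpi-1 was 15 members (14 rose and 1 fell) in place of 9, and the same count of 15 was reached without shSlpi-2 library A or B alone. It was 5 and 4 without shRenilla A or B and 4 without shSlpi-1 B. With hairpin lines as the units, limma called 0 members and 0 genes in all with the Slpi hairpins, and 6 members had an unadjusted p under 0.05.

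Summed over each class per kilobase, the cytosolic class exceeded the mitochondrial class 7.971-fold and 8.002-fold in the shRenilla libraries. The ratio was 9.15 and 9.54 with shSerpine2-1, 10.2 in both libraries of shSerpine2-2, 8.70 and 9.24 with shSlpi-1, and 11.9 and 10.5 with shSlpi-2. All 8 hairpin libraries were above both controls. With the Serpine2 hairpins the mitochondrial sum (2149 to 2233 per kilobase) lay close to that of shRenilla (2196 and 2243), and the cytosolic sum was higher (20424 to 21892 against 17576 and 17875). With shSlpi-2 the mitochondrial sum was also lower, at 1813 and 1899. The 3 mitochondrial genes called lower with shSlpi-2 are those with the most counts per kilobase in shRenilla. They are Yars2 (728), Iars2 (424) and Nars2 (190), which weigh most in that sum. Of the other mitochondrial genes Vars2 rose and 11 did not pass, so the lower sum does not stand for the class as a whole. The members are genes of the same libraries and no replicates, so the ratios are given without a test.

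**Figure D4:**
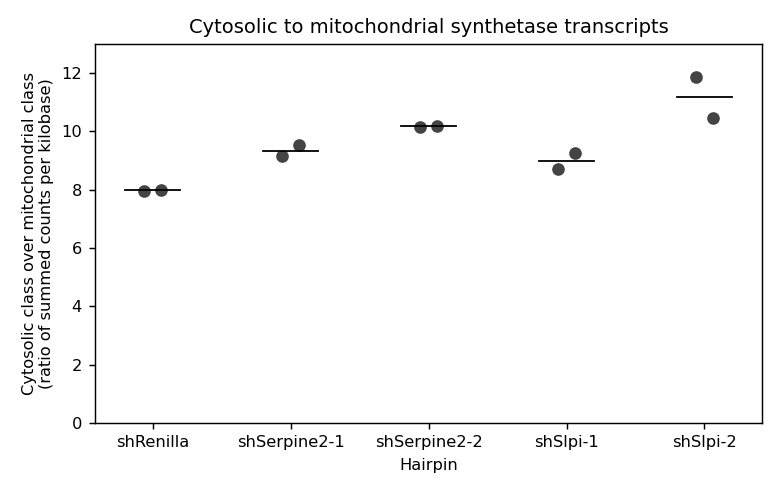
Ratio of the summed counts per kilobase of the 21 cytosolic-class genes to those of the 15 mitochondrial genes in each library (points), with the mean of the 2 libraries of a group as a line. The controls are at 7.971 and 8.002 and the hairpin libraries at 8.70 to 11.9.

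Serpine2 and Slpi hairpins were compared directly, 4 libraries against 4, with the control libraries entering only the estimate of the spread. Here 7 cytosolic and 2 mitochondrial genes were higher with the Serpine2 hairpins, against 10.3% of all genes, and 1 cytosolic gene was lower, against 7.21%. The median was 0.09 in the cytosolic class, 0.01 in the mitochondrial class and 0.00 over all genes. Iars (chr13:49682100-49734267, plus strand) had normalized counts of 5601 and 5836 in shRenilla, 6473 and 6576 with shSerpine2-1, 6354 and 6543 with shSerpine2-2, 5530 and 5699 with shSlpi-1 and 5284 and 5314 with shSlpi-2. The 4 Serpine2-hairpin libraries were the 4 highest and all 4 Slpi-hairpin libraries lay below or within the range of shRenilla, a difference of 0.25 ± 0.0322 (SE, adjusted p = 7.5e-05) in limma. Gars (chr6:55038007-55079500, plus strand) had 3713 and 3355 in shRenilla, 4199 and 4205 with shSerpine2-1, 4475 and 4402 with shSerpine2-2, 3600 and 3681 with shSlpi-1 and 3947 and 3553 with shSlpi-2. Its Serpine2-hairpin libraries were all above the rest, the difference was 0.23 ± 0.0411 (SE, adjusted p = 0.0014), and 3 of the 4 Slpi-hairpin libraries lay within the range of shRenilla. Tars, whose libraries are given above, differed by 0.23 ± 0.0393 (SE, adjusted p = 9.9e-04) in limma.

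The other cytosolic genes higher with the Serpine2 hairpins were Yars (0.14), Nars (0.14), Aars (0.13) and Mars (0.13), and Farsa was lower (-0.15). Yars, Nars, Aars and Mars did not pass after quantile normalization, and Farsa did not pass with scaling by library total. Iars2 (0.28) and Yars2 (0.25) were the mitochondrial ones, and Nars2 (0.16, adjusted p = 0.056 in limma) did not pass. Vars differed by 0.01 ± 0.0394 (SE, adjusted p = 0.84) in limma and Kars by -0.04 ± 0.0356 (SE, adjusted p = 0.46), neither past the threshold. The count was 5 or 6 members without any single library of the Serpine2 hairpins, 5 without shSlpi-1 A, and 6 after quantile normalization. With hairpin lines as the units limma called 0 members and 0 genes in all, and 4 members had an unadjusted p under 0.05.

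**Figure D5:**
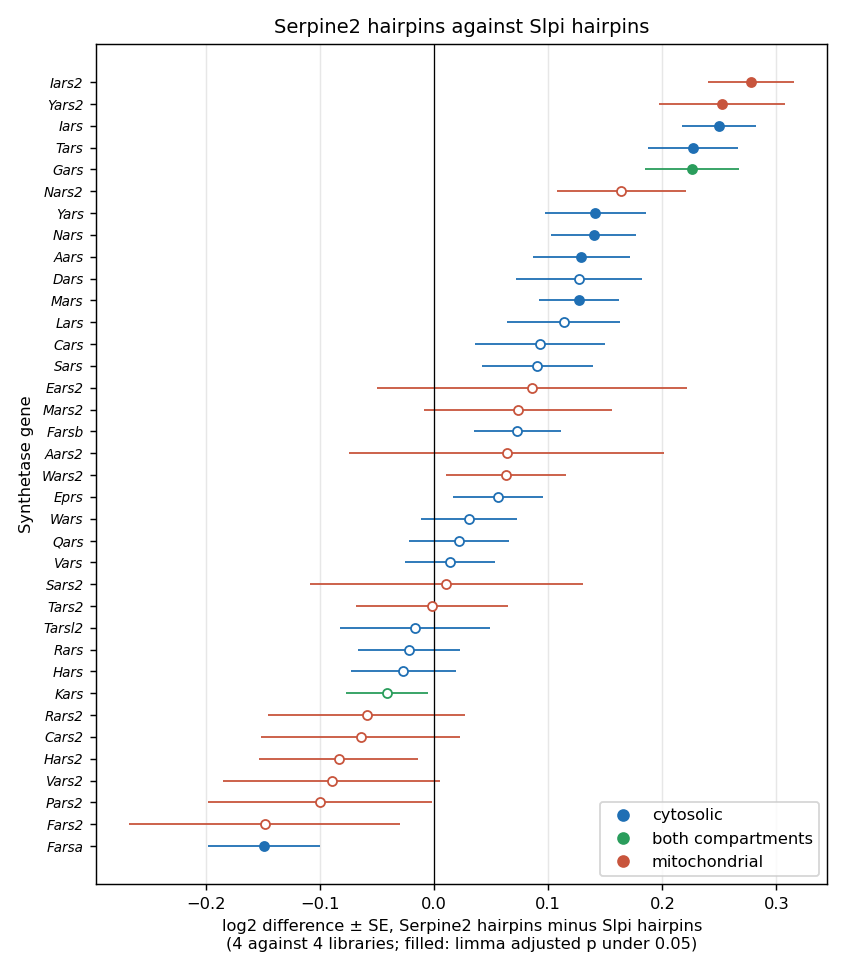
log2 difference (± SE) between the 4 Serpine2-hairpin and the 4 Slpi-hairpin libraries for the 36 synthetase genes, positive where the Serpine2 hairpins are higher. Filled points passed limma's adjusted p of 0.05, and run from -0.15 (Farsa) to 0.28 (Iars2).

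The hairpins against the same target were also set against each other. shSerpine2-1 was below shSerpine2-2 for 3 members, Nars (-0.25 ± 0.0527 SE, adjusted p = 0.0056 in limma), Sars (-0.25) and Cars (-0.28), against 7.69% of all genes, and above it for none, against 6.98%. shSlpi-1 was below shSlpi-2 for 6 cytosolic genes, against 12.3% of all genes, namely Sars (-0.24), Rars (-0.22), Kars (-0.21), Nars (-0.20), Aars (-0.19) and Vars (-0.19). It was above shSlpi-2 for 4 mitochondrial genes, against 13.7%, namely Tars2 (threonine, 0.37), Nars2 (0.35), Yars2 (0.35) and Iars2 (0.19). Tars2 had normalized counts of 319 and 302 in shRenilla, 326 and 337 with shSerpine2-1, 304 and 303 with shSerpine2-2, 348 and 375 with shSlpi-1 and 296 and 264 with shSlpi-2, so it was highest with shSlpi-1 and lowest with shSlpi-2. Fitted on the 4 libraries compared, 9 members were called between the Serpine2 hairpins and 1 between the Slpi hairpins. Scaled by library total, the 6 cytosolic genes lower with shSlpi-1 no longer passed (-0.14 to -0.09, limma adjusted p from 0.109 to 0.259), and 7 members were higher with shSlpi-1 and 0 lower. Without shSlpi-1 A or B the count between the Slpi hairpins was 3 and 6 in place of 10. Between the Serpine2 hairpins it was 0 or 1 without any single library of them, 1 without the filter on low values, and 7 without either or both shSlpi-2 libraries.

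The 12 cytosolic synthetases that general knowledge links to Atf4 (Aars, Cars, Eprs, Gars, Iars, Lars, Mars, Nars, Sars, Tars, Wars and Yars) all rose with the Serpine2 hairpins, with a median of 0.38. Of the other 9 cytosolic genes 5 rose (Farsa, Hars, Kars, Rars and Vars), with a median of 0.20. With the Slpi hairpins 9 of the 12 rose (median 0.24), the others being Gars, Iars and Mars. Of the other 9 cytosolic genes the same 5 rose (median 0.23). Of all genes tested, 10.7% rose with the Serpine2 and 16.5% with the Slpi hairpins. Between the targets 7 of the 12 were higher with the Serpine2 hairpins (median 0.13), against 10.3% of all genes. Of the other 9 none was higher and Farsa was lower (median -0.02), against 7.21% of all genes that were lower. After quantile normalization Aars (limma adjusted p = 0.104), Mars (0.0781), Nars (0.0692) and Yars (0.0972) did not pass between the targets. The Farsa call was lost in limma without the filter on low values (adjusted p = 0.0549), on the libraries compared alone (0.0585) and with scaling by library total (0.0729). The set was drawn up with earlier results of these data known, so its counts are a description.

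Other genes of the amino acid stress response moved as well. Of 32 tested, 19 rose with the Serpine2 hairpins and 0 fell (median 0.27), against 10.7% and 10.8% of all genes. With the Slpi hairpins 13 rose and 1 fell (median 0.16), against 16.5% and 18.3%. By single hairpin, 13 rose with shSerpine2-1, 21 with shSerpine2-2, 7 with shSlpi-1 and 13 with shSlpi-2. The shares of all genes that rose were 5.09%, 14.2%, 7.65% and 20.4% in turn. None fell with either Serpine2 hairpin, against 5.38% and 13.4% of all genes. Cebpb fell with shSlpi-1 and Cth with shSlpi-2, against 9.88% and 21.9%. Slc7a11, the cystine carrier, had normalized counts of 577 and 596 in shRenilla, 854 and 921 with shSerpine2-1, 1165 and 1087 with shSerpine2-2, 672 and 687 with shSlpi-1 and 643 and 628 with shSlpi-2, higher in all 8 hairpin libraries and most so with shSerpine2-2. Its limma log2 difference was 0.77 ± 0.0597 (SE, adjusted p = 6.1e-07) with the Serpine2 and 0.16 ± 0.0597 (SE, adjusted p = 0.043) with the Slpi hairpins. Slc7a5, a carrier of large neutral amino acids, rose by 0.53 and 0.47, asparagine synthetase (Asns) by 0.54 and 0.31, the mitochondrial folate enzyme Mthfd2 by 0.58 and 0.39, and phosphoserine phosphatase (Psph) by 0.53 and 0.38. Cebpb, a transcription factor of the same element, was the one that fell with the Slpi hairpins pooled (-0.39).

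Atf4 itself had normalized counts of 3363 and 3546 in shRenilla, 3519 and 3589 with shSerpine2-1, 4403 and 4730 with shSerpine2-2, 4013 and 3847 with shSlpi-1 and 4067 and 4776 with shSlpi-2. The shSerpine2-1 libraries overlapped shRenilla, and those of the other hairpins did not. Its limma log2 difference was 0.04 (adjusted p = 0.75) with shSerpine2-1, 0.40 (adjusted p = 3.5e-04) with shSerpine2-2, 0.19 (adjusted p = 0.059) with shSlpi-1 and 0.35 (adjusted p = 4.0e-04) with shSlpi-2. Atf4 is controlled largely at translation, which RNA levels do not show. Of the 12 linked synthetases, 11 rose with shSerpine2-1, 12 with shSerpine2-2, 5 with shSlpi-1 and 9 with shSlpi-2. The shares of all genes that rose were 5.09%, 14.2%, 7.65% and 20.4% in turn. The part of Atf4 in these counts was not tested.

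In the multisynthetase complex, 6 of the 8 enzymes rose with the Serpine2 hairpins (Eprs, Iars, Kars, Lars, Mars and Rars) and 4 with the Slpi hairpins (Eprs, Kars, Lars and Rars). Of all genes tested, 10.7% rose with the Serpine2 and 16.5% with the Slpi hairpins. With shSlpi-1 alone only Lars of the 8 rose, against 7.65% of all genes. With shSlpi-2 alone 5 did, against 20.4%. Of its scaffolds, Aimp1 rose by 0.41 and 0.37 and Aimp2 by 0.20 and 0.28 with the Serpine2 and Slpi hairpins. Eef1e1, the third scaffold, gave -0.05 and 0.07 and did not pass. Of the 13 cytosolic genes outside the complex, 11 rose with the Serpine2 hairpins (median 0.37, against 0.20 for the 8 enzymes inside it) and 10 with the Slpi hairpins (0.31 against 0.13).

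Factors that use the charged tRNA were counted in the same way. Of 5 cytosolic elongation factor genes, 4 rose with the Serpine2 hairpins (median 0.30), against 10.7% of all genes, and 5 with the Slpi hairpins (0.27), against 16.5%. Of 10 mitochondrial translation factor genes, 2 rose with the Serpine2 hairpins, Gfm1 (0.26), a mitochondrial elongation factor G, and Tufm (0.29), the mitochondrial elongation factor Tu, against 10.7% of all genes, with a median of 0.02. With the Slpi hairpins Tufm (0.41) and its exchange factor Tsfm (0.42) rose, against 16.5% of all genes, with a median of 0.11. By single hairpin, Tufm rose with shSerpine2-2 and shSlpi-2 and did not pass with shSerpine2-1 or shSlpi-1. A further list held 6 measured genes, Qrsl1, Gatc, Aarsd1, Dtd1, Dtd2 and Mtfmt. They belong to the tRNA amidotransferase, which makes glutaminyl-tRNA in mitochondria, or to proofreading, except Mtfmt, which formylates methionyl-tRNA. Only Gatc passed in the pooled comparisons. Gatc, an amidotransferase subunit, fell with the Serpine2 (-0.23) and the Slpi hairpins (-0.29), against 10.8% and 18.3% of all genes. By single hairpin it fell with shSerpine2-2 and shSlpi-2 and did not pass with shSerpine2-1 or shSlpi-1. In both pooled comparisons its hairpin libraries overlapped those of shRenilla (2030 and 2496). Of the 6 epithelial markers, 4 rose with the Serpine2 and 6 with the Slpi hairpins, against 10.7% and 16.5% of all genes. The part of that in the synthetase values was not tested.

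Some members share bases with a neighbouring gene, and no source used here says whether counting used strand, so reads of such pairs may not be told apart. Exosc6, an exosome subunit gene that overlaps Aars on the same strand, had normalized counts of 441 and 402 in shRenilla, 503 and 504 with shSerpine2-1, 594 and 599 with shSerpine2-2, 494 and 522 with shSlpi-1 and 614 and 652 with shSlpi-2 and rose by 0.38 and 0.43 with the Serpine2 and Slpi hairpins. Rab3gap2, which overlaps Iars2 on the opposite strand, gave -0.05 and -0.07 and did not pass. Ddit3, a stress transcription factor gene that overlaps Mars on the opposite strand, had 61.1 and 41.9 in shRenilla, 53.5 and 52.2 with shSerpine2-1, 55.3 and 64.3 with shSerpine2-2, 63.5 and 49.9 with shSlpi-1 and 56.1 and 64.4 with shSlpi-2 and did not pass (0.15 and 0.20). Hars and Hars2 overlap each other, and gave 0.24 and 0.02 with the Serpine2 and 0.26 and 0.11 with the Slpi hairpins.

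The mitochondrial members not yet given with values passed no test against shRenilla. With the Serpine2 and Slpi hairpins in turn, the log2 differences were -0.06 and -0.12 for Aars2 (alanine), 0.02 and 0.08 for Cars2 (cysteine), -0.14 and -0.23 for Ears2 (glutamate) and -0.03 and 0.12 for Fars2 (phenylalanine). They were 0.02 and 0.11 for Hars2, 0.19 and 0.12 for Mars2, -0.01 and 0.09 for Pars2 (proline), -0.15 and -0.09 for Rars2 (arginine), 0.03 and 0.01 for Sars2 (serine), 0.03 and 0.03 for Tars2 and 0.02 and -0.04 for Wars2 (tryptophan). Precision differed widely among them. The SE of the Serpine2 difference was 0.0648 for Wars2, at 493 to 562 counts per library, and 0.169 for Aars2, at 63.5 to 87.0.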

How the data were processed

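The 10 libraries were grouped by their titles. The authors used Bowtie2, HTSeq and DESeq on build mm10, per the submitters' processing notes, and no source used here gives their versions, settings or annotation. The NuGEN Ovation V2 kit amplified the cDNA, per the labels' protocols. The values the authors deposited are on a log2 scale with a floor of 6.733366499, a form that the variance-stabilizing transformation in the authors' DESeq gives. No label states it, and the reading rests on the values. It was inverted to normalized counts, which were whole multiples of 1 read in 100% of values (within 0.01 reads). The fits ran on those values, as planned for a transformed table. Other normalizations, filters, left-out libraries and a replicate block were tried as alternatives.

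limma 3.58.1 in R 4.3.3 fitted 5 group means to log2(normalized count + 1), with a mean-variance trend, for 12299 genes whose mean was 10 or more. This scale understates changes of low genes. P-values are two-sided and Benjamini-Hochberg adjusted over all genes tested, and the script was tested on simulated data. Positions are GENCODE M21 on GRCm38 and promoters are RefSeq GRCm38.p6. The members and lists were chosen with earlier results of these data known. A rule took 18 members for single-library values: up to 6 called with the smallest p and the same sign with both hairpins per pooled comparison, up to 4 for Serpine2 against Slpi and up to 3 per hairpin pair, and the highest and lowest per kilobase in each class. Vars2, Tars2, Atf4, Slc7a11, Exosc6 and Ddit3 were added after their values were seen. Some sequence is not reported here.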

Additional observations from a re-analysis of the deposited data

Results flagged for a closer look

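Hairpins against the same target differed by limma's test of the difference itself. shSerpine2-1 minus shSerpine2-2 was -0.25 for Nars, -0.25 for Sars and -0.28 for Cars on the log2 scale. shSlpi-1 minus shSlpi-2 was negative for 6 cytosolic genes, -0.21 for Kars, -0.20 for Nars, -0.22 for Rars, -0.24 for Sars, -0.19 for Vars and -0.19 for Aars. It was positive for 4 mitochondrial genes, 0.35 for Yars2, 0.35 for Nars2, 0.37 for Tars2 and 0.19 for Iars2. Scaled by library total, the 6 cytosolic differences between the Slpi hairpins were -0.14 to -0.09 and none passed (limma adjusted p from 0.109 to 0.259). The Yars2 difference was 0.20 without shSlpi-2 A and 0.49 without shSlpi-2 B, and passed in limma in both. The shSlpi-2 libraries had the highest Rn45s share, and its part in these differences was not tested.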

How the results depend on the processing

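Of 465 values of the 22 named results under alternative settings, 431 kept their direction and their side of the threshold, 34 lost the threshold and 0 reversed. These results were picked for the smallest p in the main fit. Leaving out libraries of groups outside a comparison cannot move its log2 difference. Much of this agreement was thus built in, and the shifts of counts and class medians follow. With hairpin lines as the units the count of members called was 0 in both pooled comparisons and between the targets. Without the filter on low values it was 7 for shSerpine2-1 and 1 between the Serpine2 hairpins. Fitted on the libraries compared alone it was 9 between the Serpine2 and 1 between the Slpi hairpins, and without both shSlpi-2 libraries 15 for shSlpi-1 and 7 between the Serpine2 hairpins, with no value for the pooled Slpi comparison. Quantile normalization gave 6 between the targets, and median differences from shRenilla of 0.18 (cytosolic) and 0.0034 (mitochondrial) for shSlpi-1, 0.0060 (mitochondrial) for shSerpine2-1 and -0.041 (mitochondrial) for shSlpi-2. The deposited values without inversion gave cytosolic medians of 0.23 for shSerpine2-2 and 0.24 for shSlpi-2 and a mitochondrial median of -0.029 for shSlpi-2. Scaling by library total gave 0.20 and -0.16 for shSlpi-2 in these classes. Without Gars and Kars the cytosolic median for shSlpi-1 was 0.19, and with Tarsl2 counted as mitochondrial that class had -0.046 for shSlpi-2. The cause of these shifts was not tested.

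Leaving out 1 library at a time, the count was 4 to 16 for shSerpine2-1, 4 to 15 for shSlpi-1, 11 to 20 for both Serpine2 hairpins, 5 to 15 between the targets, 0 to 7 between the Serpine2 hairpins and 3 to 11 between the Slpi hairpins. The mitochondrial median was -0.062 to 0.0052 for shSerpine2-1, -0.044 to 0.022 for shSerpine2-2, -0.057 to 0.049 for shSlpi-1 and -0.20 to -0.066 for shSlpi-2, and the cytosolic median for shSlpi-2 was 0.22 to 0.34. A group left with 1 library is assumed to vary like the others. The letters A and B carry no stated pairing, and correlations of same-letter deviations were -0.0727 to 0.0724. With the letter as a replicate block the count was 13 in place of 14 for shSerpine2-1 and 9 in place of 10 between the targets, and no other count moved. The median SE for a single hairpin was 0.122 in the mitochondrial and 0.0603 in the cytosolic class, and 0.0945 over all genes in the mitochondrial count range. The part of depth in this was not tested.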
